A study of Gallus gallus with 88 samples.

Results

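The data described here were gene expression values of the M. gastrocnemius, a leg muscle, of 8 broiler chickens at day 35 post-hatch (D35), which had been incubated at 36.8 °C instead of 37.8 °C during embryonic days ED10-13 (L13). They were chosen by their labels, as all mature leg samples named L13, and are 8 of the 88 arrays of the series. The L13 birds were set against the 8 mature controls, 2 labelled C10 and 6 labelled C13, which had stayed at 37.8 °C throughout. Values of 8 mature birds cooled to 36.8 °C at ED7-10 (L10), of 8 mature birds warmed to 38.8 °C at ED10-13 (H13), of 8 mature birds warmed to 38.8 °C at ED7-10 (H10, in the fit and 1 plot only), and of 8 L13 and 8 C13 embryos sampled at ED13 were used beside them. The methods state that the warmed eggs were also kept at a higher relative humidity during the interval. All birds were broilers kept in a barn after hatch, and each array held the RNA of an individual tissue sample, so that n counts birds. The labels used here do not give sex or slaughter weight. The study asked whether a short change of incubation temperature leaves a trace in the muscle long after hatch.

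Skeletal muscle is built of fast fibres, which draw mainly on glycolysis, and slow fibres, which draw mainly on the oxidation of fatty acids and sugars in mitochondria. Each type has its own set of contractile proteins, so that the troponins and myosin light chains of slow and fast fibres are encoded by different genes. Embryonic days 10 to 13 fall in the period in which primary fibres are completed and secondary fibres start to form. In these tissue pieces, fewer cells of a type and less RNA per cell cannot be told apart.

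The values are normalized log2 signals of 20706 probe sets, of which 12300 carry 1 gene symbol. The arrays of D35 had medians between 6.64 and 6.98, and any pair of them correlated with r between 0.889 and 0.970 across probe sets. The muscle label was checked with the fast fibre genes, whose mean lay between 10.87 and 11.62 in L13 and between 11.07 and 11.76 in controls, while markers of skin and feather had means between 5.62 and 5.99 in L13 and between 5.66 and 5.94 in controls, near the median of 5.33 of 23 background control probe sets. The mean of 18 probe sets of genes on the W chromosome, which only hens carry, was high on 4 and low on 4 arrays of L13, and likewise on 4 and 4 control arrays. The animal numbers of the D35 records form 2 ascending runs. All L13 and L10 birds are in run 2, all H13 birds are in run 1, and the controls are split 4 and 4. Both C10 controls are in run 1, and the controls of run 2 are all C13. What a run stands for is not stated.

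The split of the controls goes along with the presence of liver transcripts. Of 22 genes whose products are made mainly by hepatocytes, chosen after their values had been seen, 20 were measured. Their mean signal lay between 6.10 and 10.36 in L13 (median 6.93), between 6.79 and 9.25 in the 4 controls of run 2 (median 8.69), and between 3.30 and 3.79 in the 4 controls of run 1 (median 3.49). L10 spanned 6.16 to 11.32, and H13 spanned 2.98 to 6.40. ALB, the plasma protein albumin, had signals from 10.48 to 13.35 in L13, from 11.45 to 12.86 in the controls of run 2, and from 4.27 to 5.49 in the controls of run 1. The ranges of L13 and of the controls of run 1 did not overlap, and those of L13 and of the controls of run 2 did. None of the 20 genes was listed at 0 in L13, and up to 2 were listed at 0 on a control array. Between the control runs 57 probe sets (0.275%) differed with an adjusted p under 0.05, all of them higher in run 2, and 15 of these were liver genes. The embryos differed little in this respect, with means from 6.02 to 6.22 in ED13 L13 and from 6.17 to 6.27 in ED13 C13. Most results are therefore given with all 8 controls and, beside these, with the 4 controls of run 2. The part of the liver transcripts in them was not tested beyond a fit with their mean as a covariate.

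**Figure D1:**
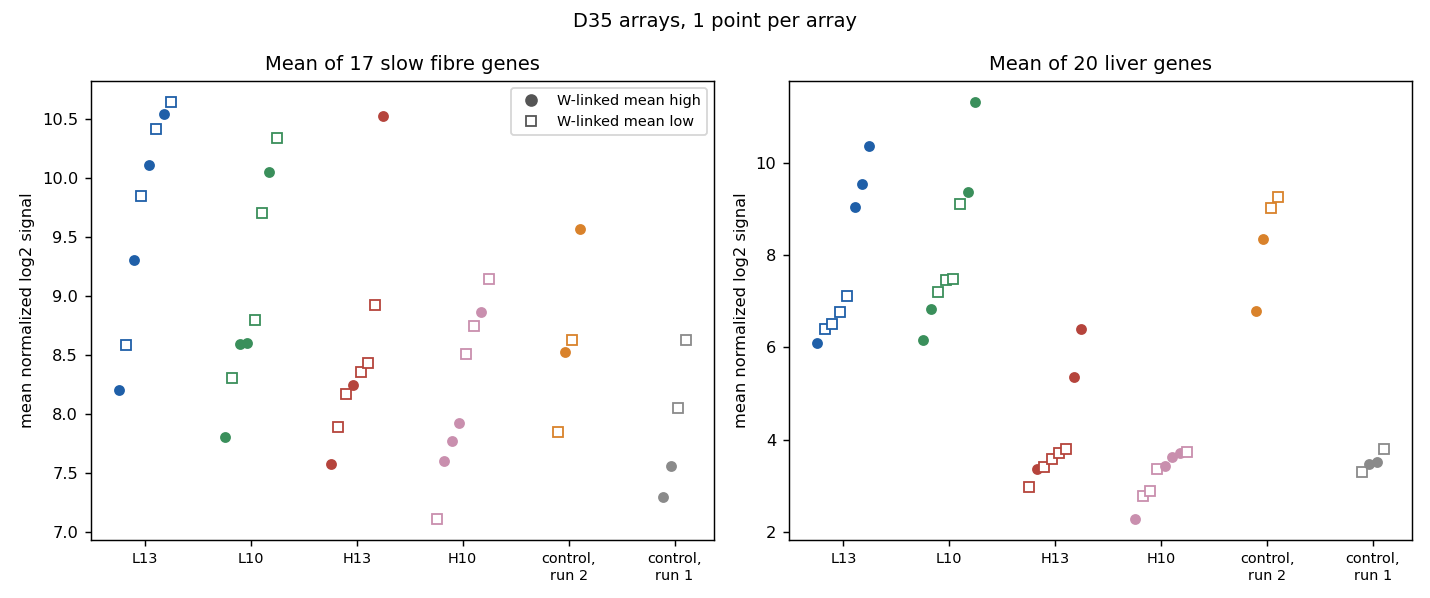
Mean normalized log2 signal per array (vertical axes) of 17 slow fibre genes (left) and 20 liver genes (right) in the D35 groups, with 1 point per array and filled or open points for a high or low W-linked mean. Of the 8 L13 arrays, 5 lie above every control on the left, and all 8 lie above the controls of run 1 on the right, where they overlap with those of run 2.

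With all controls, 3 probe sets were higher in L13 (0.0145% of those tested) and 0 were lower at an adjusted p under 0.05, from limma with Benjamini-Hochberg adjustment over all probe sets. At an unadjusted p under 0.05, 1651 were higher (7.97%) and 975 were lower (4.71%). The called probe sets were CMSS1, CXCR7 and a probe set without a gene symbol, 15428684. With the controls of run 2 alone 0 probe sets were called, and 439 were higher (2.12%) and 591 lower (2.85%) at an unadjusted p under 0.05. With the controls of run 1 alone, in which the liver genes were near background, 711 were higher (3.43%) and 85 lower (0.411%) at an adjusted p under 0.05.

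CMSS1, a component linked to the small subunit of the ribosome, had the smallest p of all probe sets. It is a dim probe set, below the 95th percentile of the background control probe sets (9.49) and above their median. Its signal ranged from 6.71 to 7.97 in L13 (median 7.00) and from 5.73 to 6.40 in controls (median 6.22). Every L13 array lay above every control array, a pattern that 7 probe sets showed upwards (0.0338%) and 10 downwards (0.0483%). The mean was 7.21 ± 0.47 in L13 and 6.14 ± 0.25 in controls (SD, n = 8 each), which gave a log2 fold change of 1.07 (SE 0.169, adjusted p = 0.00468). Against the controls of run 2 it was 0.94 with an adjusted p of 0.608. The call held without any single array of the 16, with adjusted p between 0.00189 and 0.0241. It also held with the mean of the liver genes as a covariate (log2 fold change 1.02, adjusted p = 0.0394), but not with the mean of the slow fibre genes (0.79, adjusted p = 0.172). The slow fibre mean itself differed between the groups (9.71 in L13, 8.26 in controls). A fit with it can take away part of the L13 difference, so the lost call cannot show what gave it.

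In the RefSeq annotation of the chicken assembly GRCg7b CMSS1 lies next to FILIP1L. FILIP1L, the neighbour of CMSS1, had a log2 fold change of 0.65 (SE 0.214) and an adjusted p of 0.192. IMPG2, an extracellular matrix protein known from the retina, lies 10 genes from CMSS1 on that side. Its signal ranged from 5.40 to 7.80 in L13 (median 7.06) and from 5.05 to 5.96 in controls (median 5.64), with 7 of 8 L13 arrays above the control mean. The log2 fold change of IMPG2 was 1.28 (SE 0.273), which did not pass the test (adjusted p = 0.0811). Its control median of 5.64 was near the background median of 5.33, so that the size of this fold change is uncertain. TBC1D23, which lies between these genes, had a log2 fold change of 0.03. TOMM70, a receptor for the import of mitochondrial proteins, had 0.23. LNP1, ADGRG7 and ABI3BP, which also lie between them, had 0.01, -0.29 and -0.17. COL8A1, on the other side of CMSS1, had 0.55. TBC1D23, TOMM70, LNP1, ADGRG7, ABI3BP and COL8A1 did not pass the test.

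CXCR7, an atypical receptor that binds and removes the chemokine CXCL12, had signals from 10.65 to 11.43 in L13 (median 10.95) and from 9.57 to 10.91 in controls (median 10.10). The 8 L13 arrays were above the control mean, but the highest control, C13_70 of run 2, lay within the range of L13. The means were 10.998 ± 0.28 in L13 and 10.09 ± 0.43 in controls (SD, n = 8 each), a log2 fold change of 0.91 (SE 0.170, adjusted p = 0.0328). Against the controls of run 2 the log2 fold change was 0.61 with an adjusted p of 0.987. Its ligand CXCL12 had 8.55 ± 0.29 in L13 and 8.52 ± 0.24 in controls, and CXCR4, the signalling receptor for the same ligand, had 5.07 ± 0.41 in L13 and 5.20 ± 0.24 in controls. Neither CXCL12 (adjusted p = 0.970) nor CXCR4 (adjusted p = 0.732) passed the test.

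Probe set 15428684 ranged from 11.68 to 12.47 in L13 (median 12.02) and from 11.01 to 11.90 in controls (median 11.35). Its log2 fold change was 0.73 (SE 0.136, adjusted p = 0.0328) with all controls and 0.58 with those of run 2. CXCR7 and probe set 15428684 were each called in 5 of the 16 fits that left out 1 array, with adjusted p up to 0.152, while their log2 fold changes stayed between 0.83 and 1.02 and between 0.67 and 0.81. With the liver genes as a covariate CXCR7 had 0.89 (adjusted p = 0.114) and probe set 15428684 had 0.70 (adjusted p = 0.117).

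**Figure D2:**
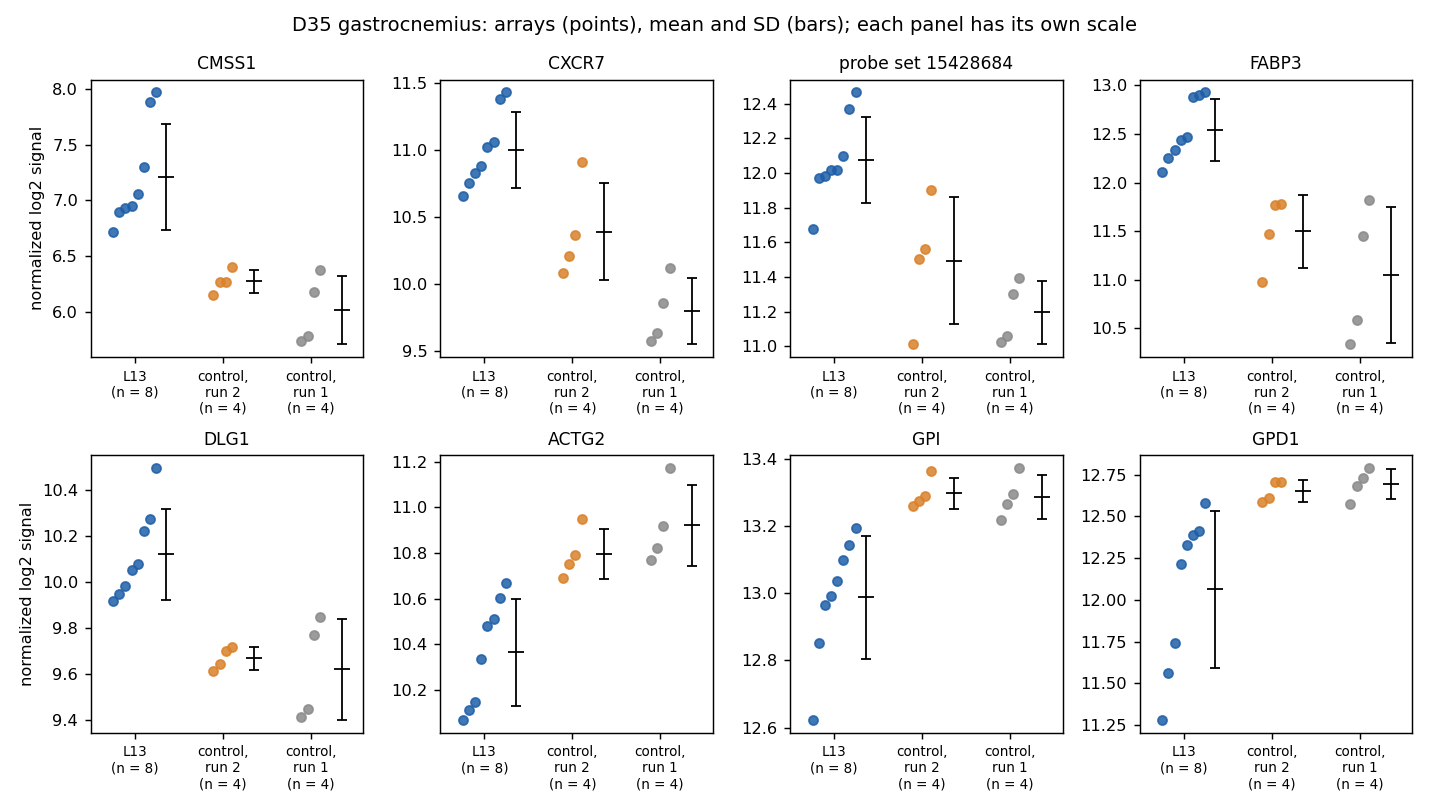
Normalized log2 signal (vertical axis, own scale in each panel) of 8 probe sets on the L13 arrays, the 4 controls of run 2 and the 4 controls of run 1, with mean and SD. CMSS1, FABP3, DLG1, ACTG2 and GPI do not overlap between L13 and any control, whereas CXCR7 overlaps with 1 control at 10.91.

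The genes next in order did not pass the test over all probe sets. FABP3, which carries fatty acids inside muscle and heart cells, had signals from 12.11 to 12.93 in L13 (median 12.45) and from 10.34 to 11.82 in controls (median 11.46). The ranges did not overlap, and the log2 fold change was 1.26 (SE 0.261, adjusted p = 0.066) with all controls, 1.04 with those of run 2 and 1.27 with the liver genes as a covariate (adjusted p = 0.189). DLG1, a scaffold protein below the cell membrane, ranged from 9.92 to 10.50 in L13 and from 9.42 to 9.85 in controls (log2 fold change 0.48, adjusted p = 0.066). INSIG2, which restrains sterol synthesis, ranged from 8.98 to 9.19 in L13 and from 8.51 to 8.92 in controls (0.33, adjusted p = 0.0891). FDX1, the electron carrier ferredoxin of mitochondria, had 0.51, TRAK1, an adaptor for the transport of mitochondria, had 0.48, EVA1C had 0.65 and FAXDC2 had 1.54, with adjusted p between 0.0811 and 0.0891.

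Genes with lower values in L13 did not pass the test either. GPI, the enzyme of the second step of glycolysis, ranged from 12.62 to 13.20 in L13 (median 13.01) and from 13.22 to 13.37 in controls (median 13.28), so that every L13 array was below every control array. Its log2 fold change was -0.30 (SE 0.0658, adjusted p = 0.0811) with all controls and -0.31 with those of run 2. The probe set annotated as PGK2, a phosphoglycerate kinase, had -0.39 with all controls and -0.38 with those of run 2. GPD1, the cytosolic glycerol-3-phosphate dehydrogenase, had 12.06 ± 0.47 in L13 and 12.67 ± 0.08 in controls (SD, n = 8 each), a log2 fold change of -0.61 (adjusted p = 0.0891). The spread of GPD1 was wider in L13, whose lowest array was at 11.28 while the lowest control was at 12.57. ACTG2, a smooth muscle actin whose sequence is close to that of other actins, ranged from 10.07 to 10.67 in L13 and from 10.69 to 11.17 in controls (-0.49, adjusted p = 0.066). OAZ1, the antizyme that lowers polyamine synthesis, had -0.37, and LAD1, ADRA2C, MYCL, DMP1 and LOC769139 had log2 fold changes between -0.47 and -0.39, with adjusted p between 0.0811 and 0.107.

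A filter on dim probe sets gave more calls, and it changed both the number of tests and the moderation of the spread. Among the 2236 probe sets whose mean was above 9.49, the 95th percentile of the background control probe sets, 64 were higher (2.86%) and 29 lower (1.3%) in L13 at an adjusted p under 0.05. With the controls of run 2 alone and the same filter 0 were called in either direction. The members named here were chosen after their values were seen, and no list was tested. The 64 included FABP3, HADHA, ACADL and PNPLA2 of the fatty acid list, COX6A1 and COX7B of the respiratory chain, OGDH of the tricarboxylic acid cycle, PDK3 of the glycolysis list (0.58) and GPD1L (1.02). The 29 included GPI, the probe set annotated as PGK2, PHKB, GPD1, the fast fibre troponin TNNT3 and CASQ2 of the slow fibre list (-0.25). AMPD1, the AMP deaminase of skeletal muscle, was also among the 29 (-0.34, against -0.36 with the controls of run 2). The largest fold change among the 93 belonged to probe set 15466570, without a symbol and named after its values had been seen. It ranged from 5.31 to 16.01 in L13 (median 14.71) and from 6.34 to 14.18 in controls (median 6.52), with a log2 fold change of 5.04 (SE 1.51, adjusted p = 0.0492 among these probe sets), and 3.60 with the controls of run 2. The filter used the mean over all D35 arrays, L13 among them. The control mean of this probe set, 8.05, was below 9.49, so it passed only through groups with higher values. Its call is therefore not independent of the filter. NR4A3, an immediate early nuclear receptor, was called in this set with 2.08, but against the controls of run 2 it had 0.37. Its control mean of 9.33 was also below 9.49. The same held for other higher calls, among them MTHFD1L (control mean 9.33), ABLIM1 (9.40), STUB1 (9.47) and GCAT (9.48). Some lower calls had an L13 mean below 9.49, among them PSMG2 (9.20) and CA2 (9.37). The counts of 64 and 29 are therefore in part not independent of the filter.

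Slow fibre genes had the highest median log2 fold change of the 41 lists, which do not include the liver genes, and their levels varied widely within the groups. Of 17 measured, 14 had a log2 fold change above 0, 11 of them with an unadjusted p under 0.05, 1 was lower with an unadjusted p under 0.05, and 0 passed the adjusted test. Among all 11528 genes, 6917 had a log2 fold change above 0, and 9.9% were higher and 4.35% lower at an unadjusted p under 0.05. The median log2 fold change of the 17 was 1.35, against 0.03 over all probe sets. With the controls of run 2 this median was 0.94, against -0.01 over all probe sets. The control runs themselves differed by a median of 0.84 for the 17 genes, against 0.09 over all probe sets. With the controls of run 2, 3 were higher and 1 lower at an unadjusted p under 0.05. Of all 11528 genes, 247 were higher and 293 lower in that contrast. With the liver genes as a covariate the median was 1.01, with 9 higher and 1 lower at an unadjusted p under 0.05. In that fit 5.68% of all probe sets were higher and 4.2% lower.

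TNNC1, the troponin C of slow and cardiac muscle, ranged from 8.78 to 12.12 in L13 (median 11.10) and from 6.76 to 9.89 in controls (median 8.88). Its log2 fold change was 2.13 (SE 0.572, adjusted p = 0.146) with all controls and 1.42 with those of run 2. CSRP3, a Z-disc protein of slow and cardiac fibres, ranged from 4.25 to 12.10 in L13 (median 10.52) and from 0.32 to 9.13 in controls (median 5.57), a log2 fold change of 4.24 (SE 1.22, adjusted p = 0.165). Its control mean of 5.58 is near the background median of 5.33, so that the size of this fold change is uncertain. FHL2, a LIM protein of the sarcomere, had 8.44 ± 1.19 in L13 and 6.46 ± 1.04 in controls (SD, n = 8 each). ATP2A2, the calcium pump of slow fibres, had 11.03 ± 1.65 in L13 and 9.17 ± 0.80 in controls, with 6 of 8 L13 arrays above the control mean. The ranges of L13 and controls overlapped for each of these genes.

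Of the other members most had a higher mean in L13. The slow myosin light chain MYL3 averaged 12.22 in L13 and 8.31 in controls, the slow troponin I TNNI1 averaged 11.48 in L13 and 8.28 in controls, and myoglobin, MB, averaged 10.17 in L13 and 8.33 in controls. LMOD2, MYOZ2, ANKRD2 and MYBPC1 had log2 fold changes of 1.92, 1.35, 0.99 and 0.97. CASQ2, a calsequestrin, went the other way, with 12.86 ± 0.21 in L13 and 13.10 ± 0.13 in controls (log2 fold change -0.25, adjusted p = 0.177). The slow myosin heavy chain MYH7 (-0.20), SLN (-0.24), ANKRD1 (0.15) and MYH15 (0.17) had an unadjusted p above 0.05.

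**Figure D3:**
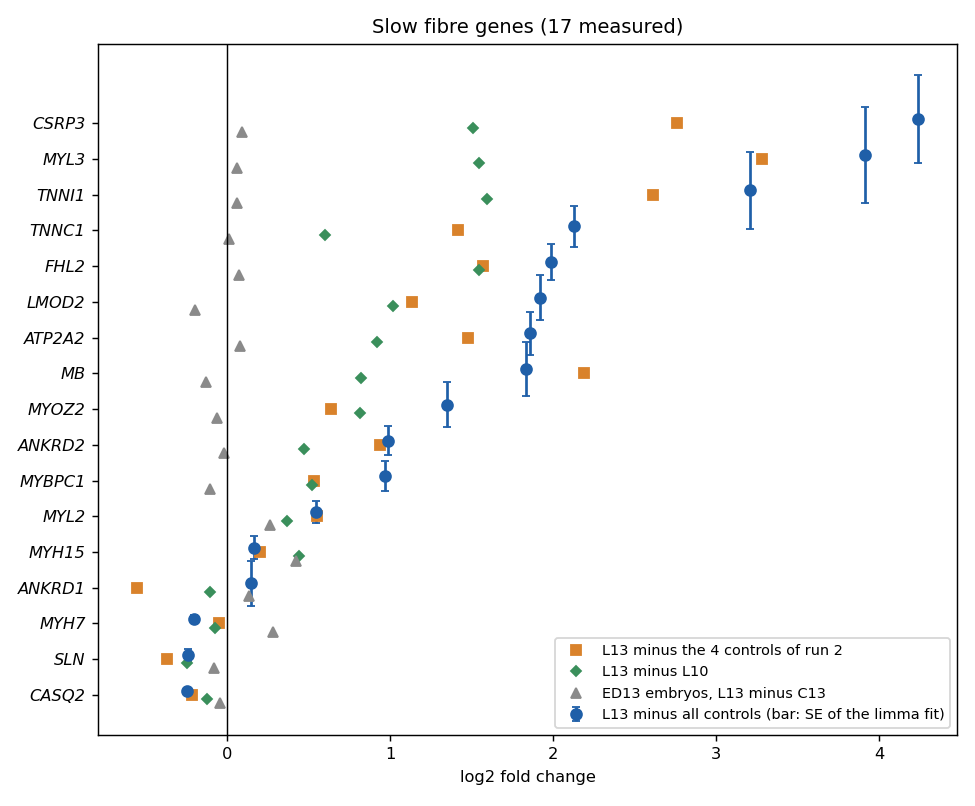
Log2 fold change (horizontal axis) of the 17 slow fibre genes (vertical axis) for L13 minus all controls with its SE, L13 minus the 4 controls of run 2, L13 minus L10, and L13 minus C13 in ED13 embryos. MYL3 and TNNI1 lie at 3.91 and 3.20 at D35 and at 0.06 and 0.06 at ED13, and CSRP3, whose controls are near background, lies at 4.24 and 0.09.

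The mean of the slow fibre genes on each array lay between 8.20 and 10.64 in L13 (median 9.98), between 7.84 and 9.57 in the controls of run 2 (median 8.57) and between 7.30 and 8.63 in the controls of run 1 (median 7.80). Of the 8 L13 arrays, 5 were above every control, and the other 3 were within the control range. Values as high also occurred outside L13, since L10 reached 10.34 and H13 reached 10.52. With this mean as a covariate 0 probe sets were called between L13 and controls, 826 were higher (3.99%) and 945 lower (4.56%) at an unadjusted p under 0.05, and CMSS1 had a log2 fold change of 0.79. In that fit the median of the fatty acid genes was 0.03, that of the respiratory chain genes -0.01, that of the hypoxia and vessel genes 0.05 and that of the adipocyte genes 0.17. The slow fibre mean was itself higher in L13, so a fit with it can take away part of the difference between L13 and controls. Smaller values in this fit, here and below, cannot show what gave the difference.

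Fast fibre genes had smaller differences, mostly in the other direction. Of 13 measured, 4 were lower (30.8%) and 1 higher (7.69%) at an unadjusted p under 0.05, against 4.35% and 9.9% over all genes. The 13 had a median log2 fold change of -0.08 (-0.13 with the controls of run 2). TNNT3, the fast troponin T, ranged from 13.13 to 13.38 in L13 (median 13.32) and from 13.39 to 13.51 in controls (median 13.46). The ranges did not overlap, although the log2 fold change was only -0.15 (SE 0.0412, adjusted p = 0.140), and -0.13 with the controls of run 2. TNNI2, the fast troponin I, had -0.20, and PVALB, the calcium buffer parvalbumin, had -0.94 (adjusted p = 0.188), with 1 L13 array at 8.83 and the lowest control at 12.33. MYH1G was the member higher at an unadjusted p under 0.05, at 2.14 (SE 0.88), and 4 of the 13 had values above 0. With the controls of run 2, 0 were higher and 2 lower at an unadjusted p under 0.05. Of all 11528 genes, 247 were higher and 293 lower with those controls. The 25 genes of the Z-disc and sarcomere scaffold had 5 higher (20%) and 5 lower (20%) at an unadjusted p under 0.05. Over all genes the shares were 9.9% and 4.35%. The median of the 25 was -0.01, and 0 were higher and 0 lower with the controls of run 2. Of these, MYOM3, a myomesin of the M-band, had 2.59 and NEBL, a nebulin-like Z-disc protein, had 0.64, while the actin-capping subunits CAPZA1 and CAPZA2 had -0.29 and -0.33.

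The 15 genes of calcium handling and excitation had 1 higher and 0 lower at an unadjusted p under 0.05, and 0 and 0 with the controls of run 2. The share higher against all controls, 6.67%, was below the 9.9% over all genes. RCAN1, an inhibitor of calcineurin, had 0.50 (SE 0.206), and TRDN, CACNA1S and MCU had -0.22, 0.12 and -0.13.

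Genes of fatty acid uptake and oxidation had higher values in L13 almost throughout. Of 36 measured, 35 had a log2 fold change above 0, 18 were higher and 0 lower at an unadjusted p under 0.05, and the median was 0.37. For comparison, 6917 of all 11528 genes were above 0, and 9.9% were higher and 4.35% lower at an unadjusted p under 0.05. With the controls of run 2 the median of the 36 was 0.20, with 5 higher and 0 lower. Of all 11528 genes, 247 were higher and 293 lower in that contrast. The control runs themselves differed by a median of 0.29 for these genes. With the slow fibre mean as a covariate the median was 0.03, with 1 higher and 0 lower (3.99% and 4.56% of all probe sets). With the liver genes as a covariate the median was 0.32, with 17 higher and 0 lower at an unadjusted p under 0.05 (5.68% and 4.2% of all probe sets). HADHA, the alpha subunit of the trifunctional protein of beta-oxidation, had 11.34 ± 0.34 in L13 and 10.65 ± 0.34 in controls (SD, n = 8 each; log2 fold change 0.69, adjusted p = 0.103), 0.43 with the controls of run 2 and 0.24 with the slow fibre mean as a covariate. ACADL, the long-chain acyl-CoA dehydrogenase, had 0.69 (adjusted p = 0.133), 0.56 with the controls of run 2 and 0.15 with the slow fibre mean as a covariate. PNPLA2, the lipase of the lipid droplet, had 0.51 (adjusted p = 0.158), with 0.30 against the controls of run 2.

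Respiratory chain genes had smaller differences. Of 53 measured, 46 had a log2 fold change above 0 and 8 were higher and 0 lower at an unadjusted p under 0.05. Among all 11528 genes, 6917 were above 0, and 9.9% were higher and 4.35% lower at an unadjusted p under 0.05. The median of the 53 was 0.13 with all controls and 0.13 with those of run 2. With the slow fibre mean as a covariate it was -0.01, with 3 higher and 1 lower (3.99% and 4.56% of all probe sets). COX6A1, a subunit of cytochrome c oxidase, had 12.20 ± 0.36 in L13 and 11.61 ± 0.18 in controls (SD, n = 8 each), a log2 fold change of 0.59 (SE 0.168, adjusted p = 0.163), 0.56 with the controls of run 2 and 0.08 with the slow fibre mean as a covariate. NDUFS8, a subunit of complex I, had 0.26 and 0.32, and COX7B had 0.14 and 0.10. Of the 15 genes of the tricarboxylic acid cycle, 3 were higher and 0 lower at an unadjusted p under 0.05, and 1 and 1 with the controls of run 2. The share higher with all controls was 20%, against 9.9% over all genes. With the controls of run 2, 247 of all 11528 genes were higher and 293 lower.

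The 35 genes of glycolysis and glycogen were split, with 6 higher (17.1%) and 8 lower (22.9%) at an unadjusted p under 0.05. Over all genes the shares were 9.9% and 4.35%. The median of the 35 was 0.04 (-0.03 with the controls of run 2, with 4 higher and 5 lower). Of all 11528 genes, 247 were higher and 293 lower with the controls of run 2. With the slow fibre mean as a covariate 3 of the 35 were higher and 3 lower (3.99% and 4.56% of all probe sets). Besides GPI and PGK2, PHKB, the beta subunit of phosphorylase kinase, had 11.24 ± 0.35 in L13 and 11.70 ± 0.14 in controls (SD, n = 8 each; log2 fold change -0.46, adjusted p = 0.137). PDK3, a kinase that restrains the entry of pyruvate into the mitochondrial cycle, had 12.03 ± 0.29 in L13 and 11.45 ± 0.30 in controls (0.58, adjusted p = 0.103). Against the controls of run 2, PHKB had -0.39 and PDK3 had 0.43.

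All 15 genes of lipogenesis and adipocytes that were measured had a log2 fold change above 0, and 9 had an unadjusted p under 0.05. For comparison, 6917 of all 11528 genes were above 0, and 9.9% were higher at an unadjusted p under 0.05. The median of the 15 was 0.38 with all controls and 0.17 with those of run 2, where 0 had an unadjusted p under 0.05. Several of these genes are also active in liver. With the liver genes as a covariate the median of the 15 was 0.33. In that fit 5 were higher and 0 lower at an unadjusted p under 0.05 (5.68% and 4.2% of all probe sets). THRSP had 0.76, GPAM 0.71, MGLL 0.49 and CEBPB 0.48, with 0.52, 0.66, 0.42 and 0.17 against the controls of run 2. The adipocyte hormone ADIPOQ had 0.04 and the lipid droplet coat PLIN1 had 0.18, both with an unadjusted p above 0.05.

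Genes of thyroid hormone action and heat production, which are relevant to cold tolerance, were considered next. Of 20 measured, 6 were higher (30%, against 9.9% over all genes) and 0 lower at an unadjusted p under 0.05. Their median was 0.12 (0.11 with the controls of run 2). The highest and lowest log2 fold changes of this list belong to ATP2A2 (1.86) and SLN (-0.24), which were also described with the slow fibre genes. PPARGC1A, the coactivator that drives mitochondrial genes, ranged from 9.17 to 10.38 in L13 (median 9.94) and from 8.05 to 9.69 in controls (median 8.94), with all 8 L13 arrays above the control mean. Its log2 fold change was 1.09 (SE 0.309, adjusted p = 0.158) with all controls and 0.67 with those of run 2. The thyroid hormone receptor THRA had 0.35 and 0.12, and SLC25A4, the adenine nucleotide carrier of muscle mitochondria, had 0.26 and 0.33. UCP3, the uncoupling protein of avian muscle, had 9.37 ± 0.98 in L13 and 9.35 ± 0.62 in controls (SD, n = 8 each), and DIO2, which activates thyroid hormone, had 5.05 ± 0.42 in L13 and 4.91 ± 0.23 in controls, near background. SLN, an inhibitor of the calcium pump, had -0.24, and none of UCP3, DIO2 and SLN passed the test.

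The cold-inducible RNA-binding protein RBM3 had 9.99 ± 0.29 in L13 and 9.98 ± 0.22 in controls (SD, n = 8 each), with 4 of 8 L13 arrays above the control mean and an adjusted p of 0.991. Of the 37 heat shock proteins and chaperones, 7 were higher (18.9%) and 1 lower (2.7%) at an unadjusted p under 0.05. Over all genes the shares were 9.9% and 4.35%. The median of the 37 was 0.12 (0.08 with the controls of run 2). STUB1, a chaperone-bound ubiquitin ligase, had 0.36 (adjusted p = 0.103), HSPB7, a small heat shock protein of heart and slow muscle, had 1.54 (adjusted p = 0.169), and the cochaperones PTGES3 and CHORDC1 had 0.32 and 0.28. With the slow fibre mean as a covariate HSPB7 had 0.16 and STUB1 had 0.28.

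Of 29 genes of muscle atrophy and ubiquitin ligases, 6 were higher (20.7%) and 1 lower (3.45%) at an unadjusted p under 0.05. Over all genes the shares were 9.9% and 4.35%. The median of the 29 was 0.17 against all controls and 0.02 against those of run 2. KLF15, a glucocorticoid-induced factor, had 0.61 and 0.30, KLHL38 had 1.16 and 0.90, ASB11 had 0.32 and 0.14, and NDFIP1 had 0.23 and 0.34. Of 25 myogenic regulators and satellite cell genes, 2 were higher and 4 lower at an unadjusted p under 0.05. These were 8% and 16%, against 9.9% and 4.35% over all genes. MYOD1 had 10.77 ± 0.33 in L13 and 10.36 ± 0.17 in controls (0.41, adjusted p = 0.341), MEF2D had 0.30, MEF2B had -0.27 and ID4 had -0.29. MSTN, the brake on muscle growth, had 10.73 ± 0.41 in L13 and 11.05 ± 0.53 in controls (SD, n = 8 each; adjusted p = 0.633). IGF1, the growth factor, had 7.48 ± 0.42 in L13 and 7.72 ± 0.33 in controls (adjusted p = 0.734). Its receptor IGF1R had 0.34 with all controls and 0.03 with those of run 2. Of the 25 genes of insulin, IGF and TOR signalling, 4 were higher at an unadjusted p under 0.05, and 0 with the controls of run 2. The share higher with all controls was 16%, against 9.9% over all genes.

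Hypoxia and vessel genes had 8 of 17 higher (47.1%, against 9.9% over all genes) and 0 lower at an unadjusted p under 0.05. Their median was 0.24 (0.15 with the controls of run 2, where 0 had an unadjusted p under 0.05 in either direction). EPAS1, the oxygen-sensing factor of vessels, had 0.32 and 0.21, VEGFA, the vessel growth factor, had 0.59 and 0.24, SLC2A1 had 0.53 and 0.29, and BNIP3 had 0.32 and 0.16. Of 35 cell cycle genes only 8 were above 0, 0 were higher and 3 were lower at an unadjusted p under 0.05, and the median was -0.11 (-0.14 with the controls of run 2, where 5 were lower). Among all 11528 genes, 6917 were above 0 with all controls, and 9.9% were higher and 4.35% lower at an unadjusted p under 0.05. With the controls of run 2, 247 of all genes were higher and 293 lower. TOP2A, CDC20, BUB1B and MCM3 had -0.52, -0.43, -0.33 and -0.20, from signals near background. Of 38 genes of chromatin and DNA methylation, 5 were higher (13.2%) and 2 lower (5.26%) at an unadjusted p under 0.05. These shares were near the 9.9% and 4.35% over all genes, and 0 and 0 passed with the controls of run 2. TET2, which starts the removal of DNA methylation, had 1.07 with all controls but 0.22 with those of run 2, and the control runs differed by 1.71. DNMT3B had -0.30, SETD7 had -0.23 and SIRT5 had 0.37. Of the 13 circadian clock genes, 5 were higher and 0 lower at an unadjusted p under 0.05, and 2 and 0 with the controls of run 2. The share higher with all controls was 38.5%, against 9.9% over all genes. With the controls of run 2, 247 of all 11528 genes were higher and 293 lower.

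Markers of other cells were read against both control sets, and their part in the other results was not tested. The 12 macrophage and myeloid genes had a median of 0.12 with all controls and -0.12 with those of run 2, and the control runs differed by 0.69. Endothelial genes had medians of 0.18 and 0.07, erythroid genes 0.26 and 0.07, T and NK lymphocyte genes -0.01 and -0.13, and genes of the fibrillar matrix -0.04 and -0.01. Tendon genes had -0.09 and 0.07 and cartilage genes had -0.09 and -0.10. The 20 liver genes had a median of 2.08 with all controls, 12 of them with an unadjusted p under 0.05, and -0.58 with those of run 2, of which 1 was above 0. Ribosomal protein genes had medians of 0.05 and 0.06, and proteasome genes 0.06 and -0.02.

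**Figure D4:**
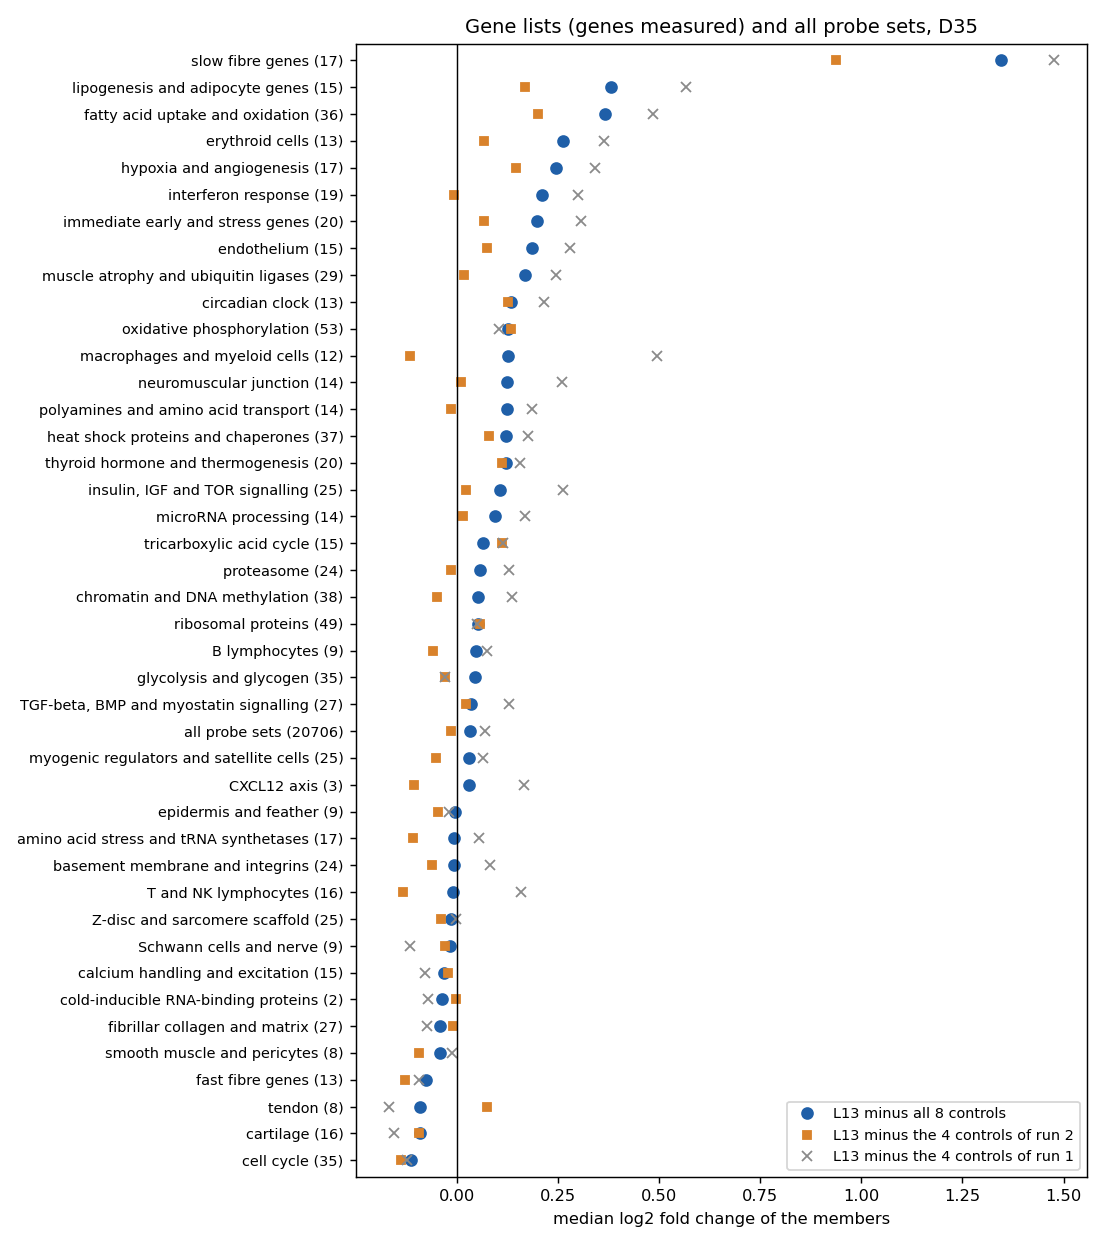
Median log2 fold change of the members (horizontal axis) of 41 gene lists and of all probe sets (vertical axis, genes measured in brackets) for L13 minus all 8 controls, minus the 4 controls of run 2 and minus the 4 controls of run 1. Slow fibre genes have the highest median under each of the control sets, at 1.35, 0.94 and 1.48.

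The same cooling in the earlier interval was used to ask whether the interval mattered. L13 and L10 are in the same run and no control enters this contrast. At an adjusted p under 0.05, 0 probe sets differed, and at an unadjusted p under 0.05, 1356 were higher (6.55%) and 305 were lower (1.47%) in L13, with a median of 0.07 over all probe sets. CMSS1 had a log2 fold change of 0.72 (adjusted p = 0.51), CXCR7 0.68 (adjusted p = 0.51), FABP3 0.81 (adjusted p = 0.59), IMPG2 1.11 (adjusted p = 0.51) and probe set 15428684 0.30 (adjusted p = 0.61). The slow fibre genes had a median of 0.60, with 1 higher and 0 lower at an unadjusted p under 0.05, and the fatty acid genes had 0.17, with 4 higher.

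The opposite temperature in the same interval gave more calls, with 194 probe sets higher (0.937%) and 106 lower (0.512%) in L13 than in H13 at an adjusted p under 0.05. After quantile normalization the split was 133 higher and 181 lower, and after centring each array on its median 150 higher and 186 lower. Since L13 is in run 2 and H13 in run 1, temperature, humidity and run cannot be told apart. Of the 300 probe sets, 272 had the sign of the difference between the control runs, and 33 were also called between those runs. The share of all probe sets with equal signs was not counted. Over all probe sets the medians of both differences were above 0 (0.05 for L13 minus H13, 0.09 between the control runs). The count of 272 was therefore not tested against a background. Of the 37 with a log2 difference above 2, 13 were liver genes of the list, among them ALB with 5.43 and FGG with 5.11. The count of 13 covers only the list. Genes outside it, picked after their values were seen, also differed strongly between the control runs. SULT6B1L, TAT and CYP2AC1 had 6.92, 4.75 and 4.26 against H13, and 8.96, 5.27 and 5.64 between the control runs. With the mean of the liver genes as a covariate 0 probe sets were called in either direction, and with the slow fibre mean as a covariate 59 were higher and 55 lower. The liver gene mean spanned 6.10 to 10.36 in L13 and 2.98 to 6.40 in H13. It thus nearly separates the groups, so a fit with it has little power to call any probe set. The loss of calls cannot show what gave them. CMSS1 differed by 0.95 (adjusted p = 0.00477), PGK2 by -0.45 (adjusted p = 0.00804), GPI by -0.29 (adjusted p = 0.0198), CXCR7 by 0.66 (adjusted p = 0.0396), TNNC1 by 2.52 (adjusted p = 0.0198) and THRA by 0.56 (adjusted p = 0.00948), with control runs that differed by 0.26, -0.02, 0.01, 0.59, 1.42 and 0.46 for these genes.

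**Figure D5:**
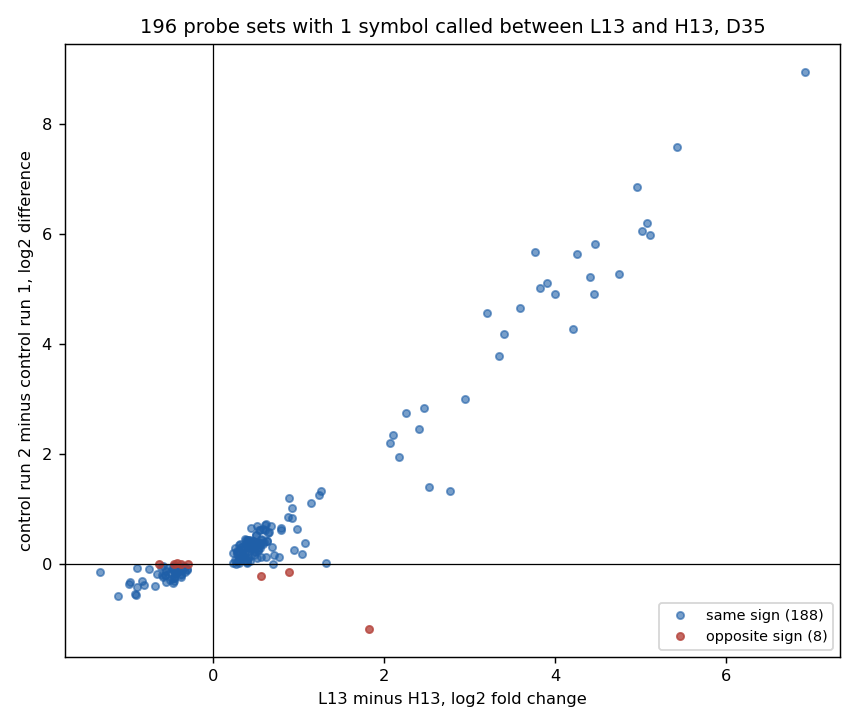
Log2 fold change of L13 minus H13 (horizontal axis) and log2 difference of control run 2 minus control run 1 (vertical axis) for the 196 called probe sets with 1 symbol. Of these, 188 have the same sign on both axes and 8 have opposite signs, and ALB lies at 5.43 and 7.59. The share of equal signs over all probe sets was not counted.

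The genes named at D35 were also read in other animals at the end of the cool interval, at ED13. There 1045 probe sets were higher (5.05%) and 487 lower (2.35%) in L13 than in C13 embryos at an unadjusted p under 0.05. CMSS1 had a log2 fold change of -0.07 in embryos (adjusted p = 0.97), CXCR7 -0.07 (adjusted p = 0.91), FABP3 0.03 (adjusted p = 0.99), DLG1 -0.05 (adjusted p = 0.95), GPI 0.08 (adjusted p = 0.85) and PGK2 0.19 (adjusted p = 0.58). The slow fibre genes had a median of 0.06 at ED13, fatty acid genes 0.01, and cell cycle genes 0.08, of which 9 of 35 were higher and 0 lower at an unadjusted p under 0.05.

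The contrast was also read within the birds with a high and those with a low W-linked mean, 4 L13 and 4 controls each. CMSS1 had 0.87 in birds with high and 1.26 in birds with low W-linked signal. CXCR7 had 0.69 in birds with high and 1.12 in birds with low W-linked signal, FABP3 had 0.81 and 1.72, PGK2 had -0.41 and -0.38, GPI had -0.30 and -0.31, and GPD1 had -0.60 and -0.62, in the same order. The difference between the sets had an unadjusted p under 0.05 for 1665 probe sets (8.04%) and was called for 1 (0.00483%), probe set 15556899, without a symbol, which was listed at 0 on all 4 controls with low W-linked signal and averaged 4.66 on the L13 arrays of that set. On arrays with high W-linked signal the same probe set averaged 11.52 in L13 and 11.81 in controls, so that its level followed the W-linked signal. CMSS1, CXCR7 and FABP3 were not called for this difference.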

How the data were processed

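Total RNA of single muscle samples was labelled and hybridised to Affymetrix arrays. The submitters' processing notes name GCOS 1.1.1. The authors deposited normalized log2 signals, and the normalization, background handling and genome build are not given in the sources used here. Both deposited tables held the same values, and 132 columns belonged to no sample of the list. The number of arrays limits the precision. Control probe sets (98) were left out, and symbols came from the platform annotation.

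Group means were fitted over all 40 D35 arrays with limma 3.58.1 in R 4.3.3 (lmFit, eBayes, checked on simulated data), with Benjamini-Hochberg adjustment and a threshold of 0.05. ED13 contrasts used the embryo arrays alone. Slaughter weight, a covariate in the methods, was not available in the labels and was not used here. Runs were read from the animal numbers in the order of the records (run 1 ends at 90, run 2 at 180).

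The members and the gene lists (1 probe set per gene, the brightest) were chosen with earlier results of these data known, and the liver list after the values were seen. Named genes were, in each direction, up to 15 called genes by fold change, otherwise up to 10 by smallest p with at least 7 of 8 L13 birds beyond the control average in that direction, up to 4 by smallest p from each of 17 lists, and 9 fixed genes; CIRBP matched no symbol of the platform annotation. Other members of a list and of the set of bright probe sets were named after their values were seen. Alternatives covered scaling, filters, weights, moderation, controls, sex and covariates, and leaving out each array. P-values set a difference of group means against the spread between birds within groups, pooled over the groups of the fit. No term for run was in the main fit, so the difference between the control runs counts as spread there. It also shifts the fold changes of L13 against all controls, and with them the p-values. All L13 birds are in the same run, whereas the controls are split. ALB, for example, had 3.15 with all controls and -0.64 with the controls of the L13 run. The control runs differed by 7.59 for this gene.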

Additional observations from a re-analysis of the deposited data

Results flagged for a closer look

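Samples that stood apart from the other 7 of their group, by the gap to the nearest one, were looked up for each named gene and for the list means, and chance gives such a gap in about 1 in 20 groups. With 89 named probe sets and the list means searched, 12 gaps were found, a number of the order that chance gives at that rate. Genes that vary together can give gaps on the same sample, so the gaps are not independent. The samples below are therefore listed as values only. Sample L13_179 stood apart with STUB1 at 10.2, NDUFS8 at 9.47, CASQ2 at 12.4 and PVALB at 8.83. Sample L13_161 had CSRP3 at 4.25, L13_6 had KLF15 at 10.1, L13_163 had CHORDC1 at 8.7, and L13_178 had a mean of the myogenic regulators and satellite cell genes of 9.16. Control C13_70 stood apart with FHL2 at 8.83, CASQ2 at 12.8, ATP2A2 at 11.1 and TNNI2 at 12.7. L13_179 and C13_70 had the highest slow fibre mean of their groups, 10.64 and 9.57.

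Of the 89 named probe sets, 22 were called in the limma contrast of L13 minus H13 (adjusted p under 0.05, Benjamini-Hochberg over all 20706 probe sets, of which 300 were called). In this contrast temperature, humidity and run cannot be told apart. Most of the 89 were chosen for their values on these L13 arrays, so their share cannot be set against that of all probe sets. Higher in L13 than in H13 were CMSS1 by 0.95, probe set 15428684 by 0.66, CXCR7 by 0.66, DLG1 by 0.4, FDX1 by 0.57, INSIG2 by 0.28, STUB1 by 0.35, PDK3 by 0.55, TNNC1 by 2.52, PTGES3 by 0.42, THRA by 0.56, CEBPB by 0.61 and ASB11 by 0.49 on the log2 scale. Lower in L13 than in H13 were ACTG2 (-0.44), GPI (-0.29), PGK2 (-0.45), LAD1 (-0.54), ADRA2C (-0.46), GPD1 (-0.6), OAZ1 (-0.43), PHKB (-0.49) and SETD7 (-0.37). With the liver gene mean as a covariate 0 probe sets were called in this contrast, but that mean nearly separates L13 from H13, so such a fit has little power.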

How the results depend on the processing

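Between L13 and controls 3 probe sets were higher and 0 lower. Higher and lower numbered 6 and 9 after quantile normalization, 6 and 6 after centring, 6 and 1 above the background median, 64 and 29 above its 95th percentile, 7 and 6 with trend and robust moderation, 4 and 3 without moderation, 4 and 3 with array weights, and 711 and 85 with the controls of run 1. With only the C13 controls 2 were higher and 0 lower. None was called with only the 2 groups in the fit or with the controls of run 2. Without single arrays 1 to 10 were higher and 0 to 8 lower, both highest without sample L13_6. Other alternatives were chosen after seeing the data. Of these, 0 were called with the slow fibre mean as a covariate, with the controls of run 2 and either the W-linked mean or the filter on bright probe sets, or within arrays of high W-linked signal, and 9 and 8 within those of low signal. Between L13 and H13 (194 and 106) the counts were 133 and 181 after quantile normalization, 150 and 186 after centring, 119 and 58 above the 95th percentile, 622 and 290 with array weights, 168 and 55 with only the 2 groups, 59 and 55 with the slow fibre mean and 0 and 0 with the liver mean as a covariate. The liver mean nearly separates L13 from H13, so the fit with it has little power. The slow fibre mean was higher in L13 than in controls, so a fit with it can take away part of that difference. Without single arrays 64 to 224 were higher and 30 to 1.2e+02 (rounded) lower, both lowest without sample L13_179. Between L13 and L10, 0 were called under each alternative run. Some genes changed sign. CXCL12 had -0.058 after quantile normalization, -0.012 after centring, -0.11 with the controls of run 2, -0.10 with these and the W-linked mean, -0.33 with the slow fibre mean, -0.021 with the liver mean and -0.023 within high W-linked signal. UCP3 had -0.058 and -0.018 after the 2 scalings, -0.11 with array weights, -0.15 with the controls of run 2 (-0.15 with the W-linked mean), -0.036 with C13 alone and -0.67 within high W-linked signal. RBM3 had -0.063 and -0.035 after the scalings, -0.029 with array weights, -0.092 with the controls of run 1, -0.22 with the slow fibre mean and -0.22 within high W-linked signal. GPAM (-0.045, against 0.71) and DIO2 (-0.067) turned with the slow fibre mean, COX7A2L (-0.038) and DIO2 (-0.11) within high W-linked signal, and other probe sets gave 0.081 for LAD1 and -0.049 for IGF1R. Without single arrays RBM3 spanned -0.052 to 0.064, CXCL12 -0.044 to 0.085 and UCP3 -0.15 to 0.24. The cause was not tested. No paired analysis was possible because each array is of a separate bird and the labels link no L13 bird to a control. Signals near the background median of 5.33 limit what dim probe sets can show.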
